A study of Rattus norvegicus with 3 samples.

Results

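Sodium reabsorption along the kidney tubule was followed through 8 genes chosen by name: Slc9a3, Slc4a4 and Slc4a7, which move sodium with protons or bicarbonate, Slc12a3, Trpm6 and Pvalb of the distal convoluted tubule, and Atp1b1 and Fxyd2 of the sodium pump. A probe belonged to the set when its gene symbol, or the current symbol behind its accession, was one of these. All 8 genes were on the array, out of 17943 genes with a symbol, and they were read by 13 of its 30367 probes. Slc9a3, Slc4a4, Slc12a3, Trpm6 and Fxyd2 had 2 probes each and the other 3 genes had 1 probe each. Every probe was printed on 1 spot.

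The RNA came from kidneys of male spontaneously hypertensive rats (SHRs), a Wistar-derived strain in which blood pressure climbs as the animals mature. Rats aged 8 to 10 weeks and weighing 280 to 330 g received water or a protein hydrolysate of blue mussel (Mytilus edulis; HBMP in the labels) by mouth for 4 weeks, in about 3 mL once a day. The control group received water alone, the low-dose group received 10 mg/kg/day and the high-dose group 20 mg/kg/day, with 10 rats in each. All groups were of this hypertensive strain, and a strain with normal blood pressure was not analysed here. RNA of 4 rats was mixed for each group and put on 1 single-colour array, so every value below is that of 1 pool, groups could not be tested against each other, and precision is limited by having 3 arrays.

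Sodium leaves the tubule fluid through a different carrier in each segment, while the same pump drives all of them from the opposite side of the cell. In the proximal tubule the exchanger NHE3, encoded by Slc9a3, takes up sodium against protons, and the cotransporter NBCe1, encoded by Slc4a4, passes sodium and bicarbonate on to the blood. In the distal convoluted tubule the thiazide-sensitive sodium chloride cotransporter NCC, encoded by Slc12a3, takes up sodium, in cells that also reabsorb magnesium through the channel Trpm6. The pump is an ATPase with a catalytic alpha and a glycosylated beta subunit, and Fxyd2 is its small gamma subunit, which tunes the pump's affinity for sodium.

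The control array had 15352 probes above background, the low-dose array 15806 and the high-dose array 16617. A probe stood above background when its signal-to-noise ratio was at least 3. Levels are net spot intensities brought to a common 75th percentile, and differences are on the log2 scale. The value after ± is a technical SD: the median SD of the spot-by-spot log2 difference among probes printed on 10 spots and within 1 log2 unit in brightness, of which there were 14 to 465. It covers the scatter of spots within an array and nothing of the difference between animals. Kidney as the labelled tissue was checked with 15 proximal tubule markers, and all 15 stood above background on all 3 arrays.

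Sequence upstream of the start site was held in the RefSeq table (GRCr8) for 5 of the 8 genes, Slc9a3, Slc4a4, Slc12a3, Trpm6 and Pvalb. The windows of Slc9a3, Slc4a4 and Slc12a3 are shown because these are the apical and basolateral sodium carriers of the set that stood below control at both doses with their representative probe. Each window runs from 250 bases before to 50 bases after the start site, 5′ to 3′ on the gene's strand. They lie at chr1:30995953-30996252 (minus strand) for Slc9a3, chr14:19468233-19468532 (minus strand) for Slc4a4 and chr19:10675001-10675300 (minus strand) for Slc12a3. Capitals mark matches, on either strand, to the TATA box TATAAA, the GC box GGGCGG and the half-site AGAACA of corticosteroid receptors.
Slc9a3: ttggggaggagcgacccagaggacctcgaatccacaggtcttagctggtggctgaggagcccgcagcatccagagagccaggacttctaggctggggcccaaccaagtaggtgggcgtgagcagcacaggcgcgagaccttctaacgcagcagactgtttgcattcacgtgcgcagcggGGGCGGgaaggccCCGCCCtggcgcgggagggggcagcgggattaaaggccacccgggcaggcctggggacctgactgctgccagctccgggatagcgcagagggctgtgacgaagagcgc
Slc4a4: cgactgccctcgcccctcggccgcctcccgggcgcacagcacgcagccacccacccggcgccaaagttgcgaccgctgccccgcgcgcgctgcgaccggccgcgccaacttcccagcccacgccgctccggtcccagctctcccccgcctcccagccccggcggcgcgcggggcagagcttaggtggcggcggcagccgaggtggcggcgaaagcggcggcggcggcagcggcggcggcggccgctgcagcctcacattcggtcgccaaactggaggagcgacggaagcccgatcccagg
Slc12a3: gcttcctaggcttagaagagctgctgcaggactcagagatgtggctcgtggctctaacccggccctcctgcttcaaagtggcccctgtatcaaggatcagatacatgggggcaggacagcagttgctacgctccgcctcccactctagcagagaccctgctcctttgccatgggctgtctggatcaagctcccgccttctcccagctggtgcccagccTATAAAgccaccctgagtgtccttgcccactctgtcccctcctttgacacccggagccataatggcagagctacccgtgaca

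The Slc12a3 window held a TATA box that begins 32 bases before the start site, as do 14.2% of 33365 windows of this length when either strand and any position are counted. The Slc9a3 window held 2 GC boxes on opposite strands, beginning 71 and 58 bases before the start site, a motif found in 33.1% of all windows. None of the 3 motifs was in the Slc4a4 window, which was 78% G and C against a median of 51.7% over all windows. The half-site AGAACA, found in 20.6% of all windows, was in none of these 3 windows. It did occur in windows of Trpm6 and Pvalb, which are not shown. Also sought was the HNF1 half-site GTTAAT, found in 7.46% of all windows and in no window of the members. A match is a description of letters and not a site of binding.

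The proximal genes Slc9a3 and Slc4a4 stood below control at both doses, Slc9a3 with its lowest value at the low dose and Slc4a4 at the high dose. For Slc9a3 the scaled intensity was 102 in the control pool, 56.9 with the low and 87.8 with the high dose. Its log2 difference was -0.85 ± 0.14 at the low dose, at percentile 1.26 of 9747 genes above background on both arrays, and -0.22 ± 0.13 at the high dose, at percentile 28.3 of 9910 genes. Between the doses it was 0.63 ± 0.11 higher at the high dose. In bulk kidney RNA, fewer cells of a type and less RNA per cell cannot be told apart.

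The other Slc9a3 probe was dim, at 17.3 in the control pool, 13.5 with the low and 26.5 with the high dose. It stood above background on the high-dose array alone. There it read 1.54-fold the control spot and 1.96-fold the low-dose spot, which are plain ratios to spots not above background. Its control and low-dose spots were not above background and cannot be ranked, so the low value at the low dose rests on the brighter probe. The probes differ in whether the high dose lay below or above control. With the mean over both probes the high-dose difference was 0.20 (log2).

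Slc4a4 descended in steps across the 3 arrays. Its brighter probe read 2706 in the control pool, 1981 with the low and 1603 with the high dose, which is -0.45 ± 0.10 at the low dose and -0.76 ± 0.09 at the high dose (log2). The high-dose difference lay at percentile 1.26 of all genes. The dimmer probe read 773, 646 and 603 in the same order of arrays, with smaller log2 differences of -0.26 ± 0.09 and -0.36 ± 0.09, so both probes put the control array highest and the high-dose array lowest. On the low-dose array the software had not flagged the brighter probe's spot as good.

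Slc4a7 encodes the electroneutral sodium bicarbonate cotransporter NBCn1, which in rat kidney is found on the basolateral side of the medullary thick ascending limb. It stood above control at both doses, and at the high dose it had the greatest difference of any member. Its scaled intensity was 24.2 in the control pool, 40.5 with the low and 52.1 with the high dose. The log2 difference was 0.74 ± 0.17 at the low dose and 1.11 ± 0.17 at the high dose, at percentiles 95.6 and 99.4.

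Slc4a7 was thus 2.16-fold higher at the high dose than in the control, and the 1 member past 2-fold in any comparison. In this comparison 0.848% of genes were higher by 2-fold or more and 0.151% lower by 2-fold or more. The control spot was barely above background, with a signal-to-noise ratio of 3.14, and its spot was flagged good on both dose arrays but not on the control array. Under normexp background correction, which damps differences of dim spots, the log2 differences were 0.17 and 0.30 at the low and the high dose, and no member passed 2-fold.

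**Figure D1:**
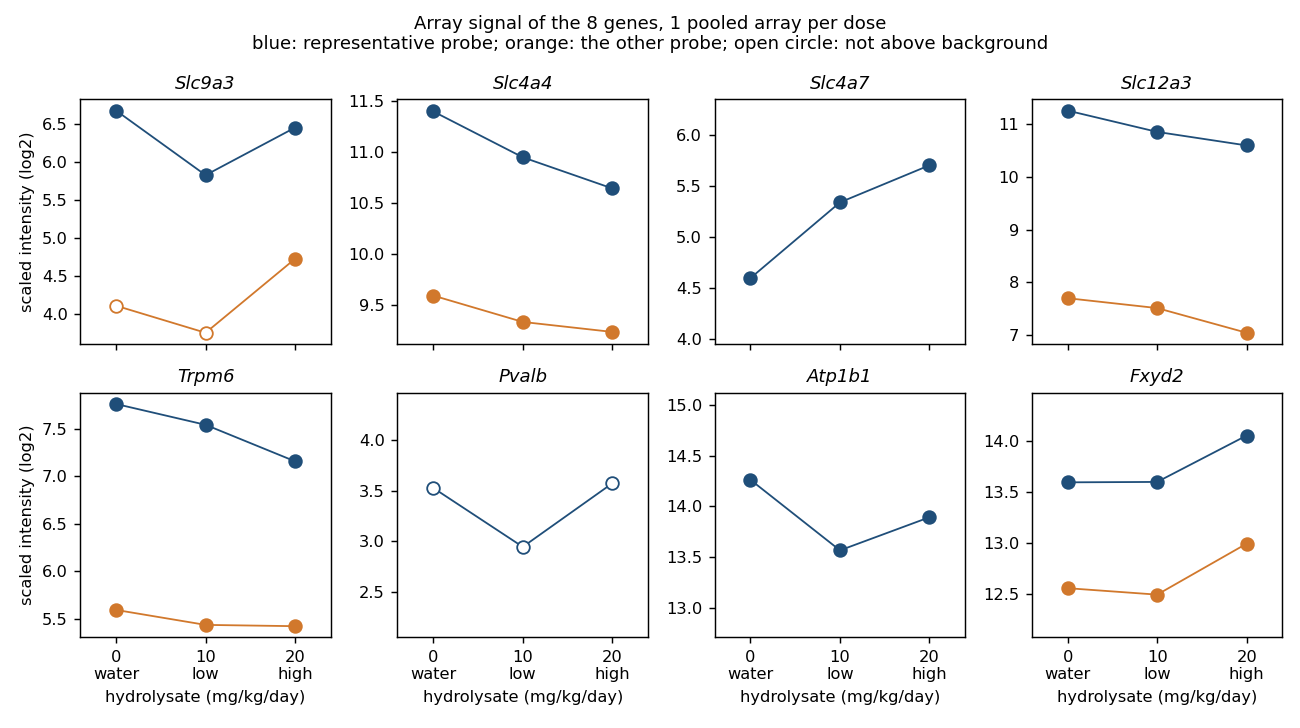
Scaled intensity (log2, vertical axis) of every probe of the 8 genes against the daily dose on the horizontal axis, where each circle is 1 pooled array. Slc4a4 and Slc12a3 descend from water to the high dose with both probes, and Trpm6 with its brighter probe. The dimmer Trpm6 probe is nearly level between the doses. Atp1b1 and the brighter Slc9a3 probe are lowest at the low dose, Fxyd2 is highest at the high dose, and Pvalb is not above background on any array.

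The distal genes Slc12a3 and Trpm6 also stood lower at each dose than in the control, and lowest at the high dose. The brighter Slc12a3 probe read 2427 in the control pool, 1837 with the low and 1539 with the high dose. Its log2 difference was -0.40 ± 0.10 at the low dose and -0.66 ± 0.09 at the high dose, at percentiles 13.7 and 2.24. The dimmer probe read 208, 183 and 133 in the same order, with a smaller difference of -0.19 ± 0.11 at the low dose and the nearly equal difference of -0.65 ± 0.11 at the high dose. The high dose lay below the low dose by -0.26 ± 0.06 with the brighter and -0.47 ± 0.08 with the dimmer probe.

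Trpm6, the channel kinase that lets magnesium into distal convoluted tubule cells, read 216 in the control pool, 186 with the low and 143 with the high dose by its brighter probe. The log2 difference was -0.22 ± 0.10 at the low dose and -0.60 ± 0.10 at the high dose, at percentiles 34.9 and 3.64. The dimmer probe read 48.4, 43.4 and 43.0, and its differences of -0.16 ± 0.15 and -0.17 ± 0.16 were close to the technical SD. The high-dose difference of Trpm6 rests on 1 of its 2 probes, and with the mean over both it was -0.39.

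Pvalb encodes parvalbumin, a calcium buffer of the early distal convoluted tubule and of fast skeletal muscle. Its probe did not stand above background on any array, with scaled intensities of 11.5 in the control pool, 7.71 with the low and 11.9 with the high dose, and signal-to-noise ratios in that order of 1.33, 0.857 and 2.80. No difference is given for it. Of 9 skeletal muscle markers, 2 stood above background on the control and low-dose arrays, Tnnc2 and Myl11, and Myh4, Ckm and Acta1 stood above background on none of the 3.

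The pump subunits Atp1b1 and Fxyd2 lay on opposite sides of control at the high dose, Atp1b1 below and Fxyd2 above, and both were higher at the high dose than at the low dose. Atp1b1, the beta-1 subunit that brings the catalytic subunit to the membrane, read 19644 in the control pool, 12154 with the low and 15227 with the high dose. Its log2 difference was -0.69 ± 0.14 at the low dose, at percentile 2.67, and -0.37 ± 0.16 at the high dose, at percentile 14.6. The low-dose spot was uneven: its net mean of 12610 lay below its net median of 14939, and the software had not flagged it as good. With spot medians the log2 difference between the doses, 0.33 ± 0.09 with spot means, was 0.10. In the authors' deposited table its log2 difference was -0.37 at the low dose and -0.22 at the high dose.

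Fxyd2 read 12352 in the control pool, 12386 with the low and 16984 with the high dose, so only the high-dose array stood apart. The log2 difference was 0.00 ± 0.14 at the low dose and 0.46 ± 0.15 at the high dose, at percentiles 65.8 and 93.7. The other probe gave 6009, 5751 and 8137, and differences of -0.06 ± 0.11 and 0.44 ± 0.10. Against the low dose, the high dose was higher by 0.46 ± 0.09 with the first probe and 0.50 ± 0.06 with the other. At the low dose the sign of the difference depended on the probe and on the processing.

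**Figure D2:**
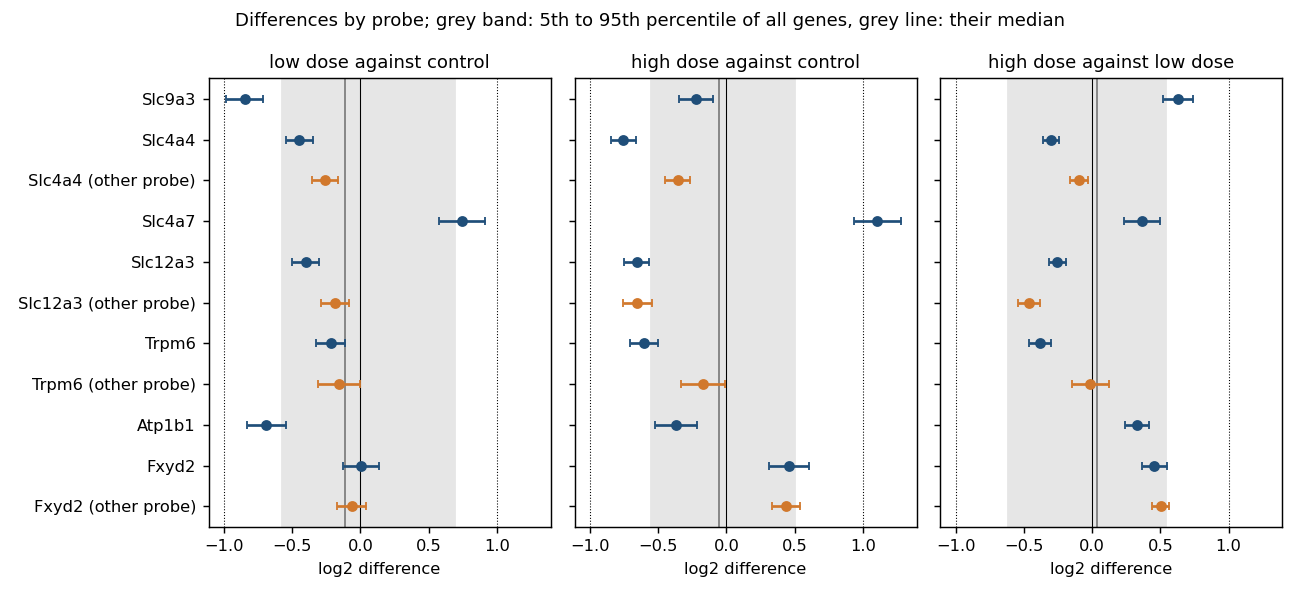
Log2 difference (horizontal axis) of each probe above background on all 3 arrays, in 3 panels for the 3 comparisons, with bars of 1 technical SD. Slc4a7 at the high dose is the only point past the dotted 2-fold lines, and Slc4a4, Slc12a3 and Trpm6 at the high dose and Slc9a3 and Atp1b1 at the low dose lie below the grey band of all genes with their representative probe.

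Over the 7 measured members, 0 passed 2-fold at the low dose, where 3.21% of all genes did, 2.47% upward and 0.739% downward. At the high dose 1 of the 7 was past 2-fold, and 0.999% of all genes were. Between the doses 0 were, and 1.95% of all genes were, 0.463% higher and 1.49% lower at the high dose. At the low dose 5 of the 7 lay below and 2 above control, while 65.4% of all genes lay below and 34.6% above. At the high dose 5 lay below and 2 above control, while 57.5% of all genes lay below and 42.5% above. The median log2 difference of the members was -0.40 at the low dose, where the median over all genes was -0.11. At the high dose it was -0.37, where that of all genes was -0.05. Between the doses it was 0.33, beside 0.04 over all genes. There 4 members were higher and 3 lower at the high dose, while 54.8% of all genes were higher and 45.2% lower. The comparisons with control share the control array, so a low or high spot there enters both.

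The sodium pump list of 15 subunit and FXYD genes, which includes Atp1b1 and Fxyd2, had 11 genes above background on both arrays at each dose. At the low dose 3 were past 2-fold upward and 0 downward, with a median of 0.00. At the high dose 1 was past 2-fold upward and 0 downward, with a median of 0.03. The genes past 2-fold were FXYD genes. Fxyd1, phospholemman of heart and muscle, stood at 2.26 at the low dose and 1.67 at the high dose. Its control spot was dim, with a scaled intensity of 27.6 beside 24.2 for Slc4a7, which limits the size of these differences. Fxyd4, the collecting duct regulator also called CHIF, stood at 1.33 and 0.94, and Fxyd5, dysadherin, at 1.17 and 0.41.

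Fxyd3 was not above background on the control array. It was at least 17.2-fold higher than control at the low dose and at least 7.01-fold at the high dose, and its log2 difference between the doses was -1.29. Fxyd6 stood at -0.62 at the low dose and -0.20 at the high dose, and Fxyd7 at -0.35 and -0.39.

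Of the other beta subunits, Atp1b3 stood at 0.25 at the low dose and 0.36 at the high dose, and Atp1b2 at 0.17 and -0.13. Atp1b4 was not above background on any array. Among the 3 measured beta subunits, Atp1b1 was therefore the one below control at both doses.

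**Figure D3:**
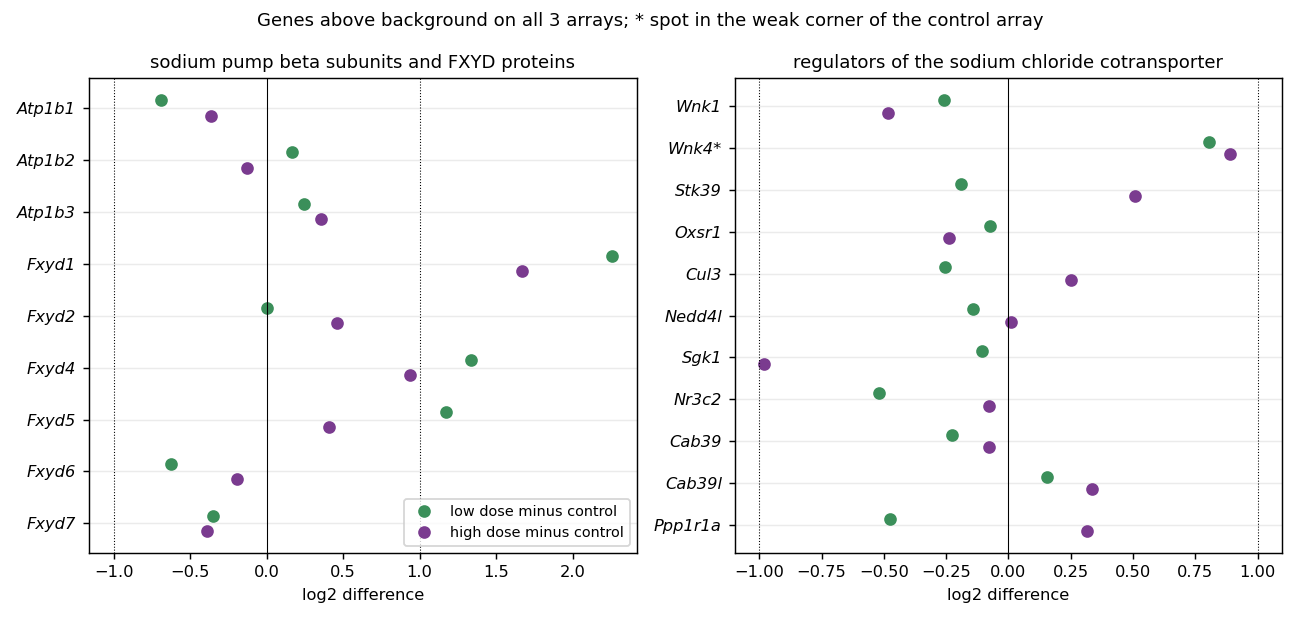
Log2 difference from control (horizontal axis) at the low dose and the high dose for the pump's beta subunits and FXYD genes (left) and for regulators of the sodium chloride cotransporter (right), 1 point per gene and dose. Fxyd1, Fxyd4 and Fxyd5 lie past 2-fold at the low dose, Sgk1 lies lowest among the regulators at the high dose, and the Wnk4 spot lies in a region of low signal on the control array.

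Regulators of NCC were listed because they set how much of the Slc12a3 protein is active. Of 13 listed genes, 11 were above background, 0 passed 2-fold at either dose, and the median was -0.19 at the low dose and 0.01 at the high dose. At the high dose 6 stood above and 5 below control. Wnk1, a kinase at the head of the cascade that activates NCC, stood at -0.26 and -0.48 at the low and the high dose. Stk39, the kinase SPAK that phosphorylates NCC, stood at -0.19 and 0.51, and its relative Oxsr1 at -0.07 and -0.24.

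Wnk4 stood at 0.81 and 0.89, but the control array was dim around its spot, in a region that holds no spot of the 8 genes. Sgk1, the aldosterone- and glucocorticoid-induced kinase that acts on sodium transport, was near control at the low dose, at -0.11, and just short of 2-fold lower at the high dose, at -0.98. The ubiquitin ligase parts Nedd4l and Cul3 stood at -0.14 and -0.26 at the low dose and 0.01 and 0.25 at the high dose. Wnk3 was not above background on any array, and Klhl3 was not analysed here.

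Related carrier families were described by their counts. Over all genes, 65.4% lay below control at the low dose and 57.5% at the high dose. The high-dose counts of the SLC9, SLC4 and SLC12 lists are near that share. Of the SLC9 exchangers and their partners, 9 of 11 measured genes lay below control at the low dose and 7 of 11 at the high dose, with medians of -0.40 and -0.22 and 0 past 2-fold. Of the SLC4 carriers and carbonic anhydrases, 10 of 13 lay below control at the low dose and 7 of 13 at the high dose, with medians of -0.22 and -0.13, and Slc4a7 at the high dose was the 1 gene past 2-fold. Of the SLC12 cotransporters, 6 of 8 and 5 of 8 lay below control, with medians of -0.30 and -0.28 and 0 past 2-fold. Distal magnesium and calcium genes had 10 of 13 and 9 of 13 below control, with medians of -0.24 and -0.17 and 0 past 2-fold. Cnnm2 of that list, above control at both doses, has its spot in the region where the control array was dim. These lists contain the members of their family and are not separate evidence for them.

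Sodium-coupled carriers of the proximal tubule, a list that holds none of the 8 genes, lay below control almost throughout. At the low dose 16 of 17 measured genes were below control with a median of -0.34, and at the high dose 15 of 16 with a median of -0.36, while 0 passed 2-fold. The shares of all genes below control were 65.4% and 57.5%. The phosphate carrier Slc34a1 stood at -0.31 and -0.34 and the glucose carrier Slc5a2 at -0.35 and -0.62, both named after their values were seen. The low-dose differences of Slc4a4 and Slc9a3, -0.45 and -0.85, were further below control than this list's median. Both lay within its range, which reached -0.88 at the low dose and -0.67 at the high dose. Slc4a4, at -0.76, was also further below control than the median at the high dose, while Slc9a3, at -0.22, was less far below.

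Markers of nephron segments and of other cells moved between the same arrays, on which 65.4% and 57.5% of all genes lay below control at the low and the high dose. All 15 proximal tubule markers lay below control at the low dose (median -0.41), and 14 of 15 did at the high dose (median -0.51). Their summed scaled intensity was 276969 in the control pool, 206173 with the low and 201165 with the high dose. That list includes Slc9a3 and Slc4a4. Distal convoluted tubule markers, which include Slc12a3, Trpm6 and Pvalb, had medians of -0.31 and -0.19, with 4 of 6 and 3 of 6 measured genes below control. Among those above control was Cnnm2, at 0.64 and 0.40, whose spot lies in the same dim region of the control array as that of Wnk4. Calb1, the calcium-binding calbindin of distal tubule cells, was above control at both doses, at 0.35 and 0.32. Slc8a1, the sodium calcium exchanger, stood at -0.57 and -0.38, and Trpv5 and Kcnj10 were not above background on any array.

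For thick ascending limb markers the medians were -0.40 and 0.09 at the low and the high dose, with 7 of 9 and 3 of 9 below control. Principal cell markers had medians of 0.52 and 0.29, with 3 of 8 and 4 of 8 below control. Among those below at both doses were the sodium channel subunits Scnn1b and Scnn1g. Intercalated cell markers had medians of -0.38 and 0.15, with 7 of 7 and 3 of 7 below control. For podocyte markers the medians were -0.30 and -0.32, with 4 of 4 below control at both doses. Adipocyte markers had medians of 3.22 and 3.02 over 5 measured genes, with sums of 729 in the control pool, 7493 with the low and 3254 with the high dose, while Lep and Plin1 were not above background on any array. Macrophage markers had medians of 1.17 and 0.20 with sums of 2471, 5573 and 2525, and fibroblast markers 1.42 and 0.32 with sums of 3350, 10630 and 3670, in the same order of arrays. Their part in the values of the 8 genes was not tested.

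**Figure D4:**
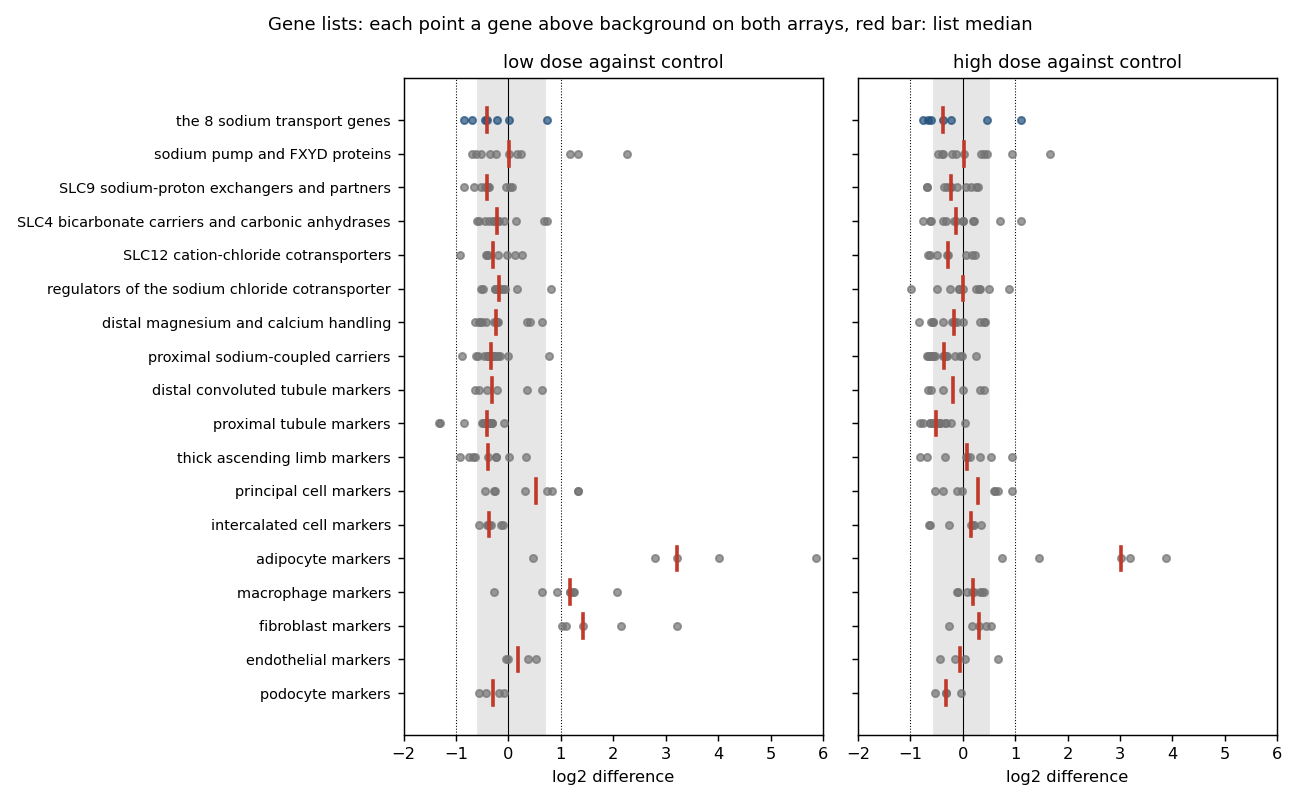
Log2 difference from control (horizontal axis) of each measured gene of the pathway and marker lists at the low dose (left) and the high dose (right), with a red bar at each list's median and a grey band from the 5th to the 95th percentile of all genes. The 8 sodium transport genes and the proximal lists have medians between -0.51 and -0.34 in both panels, while adipocyte markers have medians above 3.

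The genes most like Slc4a7 were sought by the distance between their 2 log2 differences from control and its own, over 3 arrays and 9655 other genes above background on all of them. The nearest were Cdc25b at a distance of 0.05, Acat1 at 0.08 and Clcn7 at 0.08, which stood at 0.73, 0.70 and 0.77 at the low dose and 1.06, 1.17 and 1.03 at the high dose. Only 7 genes lay within a distance of 0.1, and a likeness over 2 differences that share a control array is a description only.

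**Figure D5:**
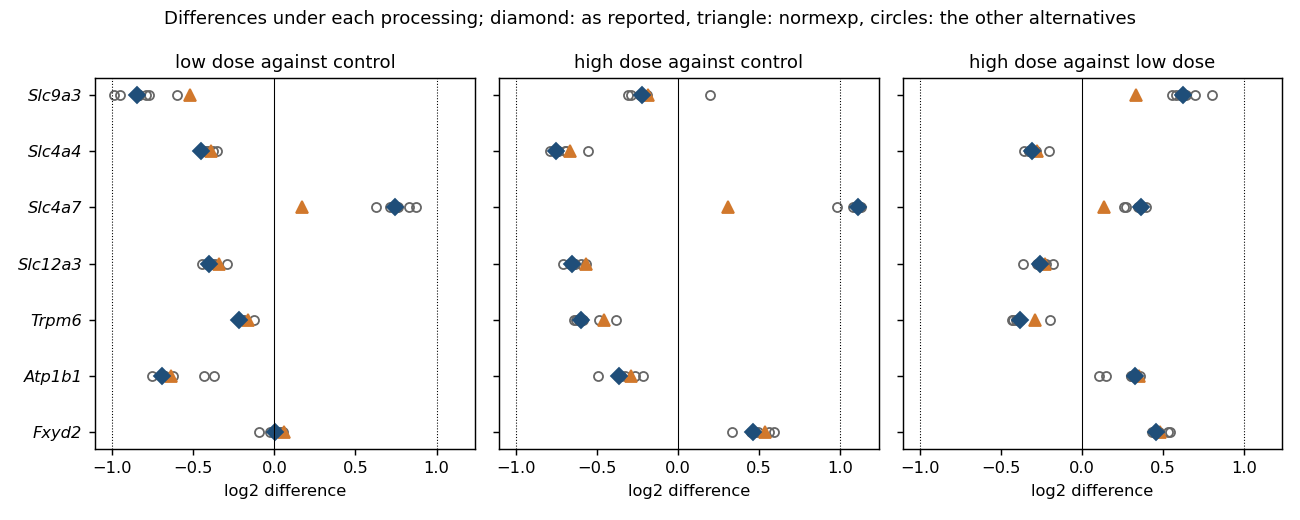
Log2 difference (horizontal axis) of the 7 measured genes under the reported processing (diamonds), under normexp background correction (triangles) and under the other 9 alternatives (circles). Slc4a7 moves most, between 0.30 and 1.13 at the high dose, and Slc4a4, Slc12a3 and Trpm6 stay below 0 in both comparisons with control.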

How the data were processed

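Spot intensity at 532 nm was read with GenePix Pro 6.1.0.4 and deposited net of a background of 39 (control and high dose) or 40 (low dose), per the file headers; the submitters' notes instead name Feature Extraction. The deposited flag and signal-to-noise ratio are a score per spot, and saturated pixels a percent, 0 for every member spot. A mouse design is named in the high-dose header, but that array's probe annotation equals the control's. The authors also deposited log2 values (each column's median 4.77) that track their own arrays (r 0.947 to 0.955); their scaling and centring are not given in the sources used here.

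Left out were control spots, bright spots marked not found (5 or 6 per array) and spots with mean and median over 1.5-fold apart (67 to 131). Net means were scaled to the 75th percentile, floored at 1 and logged. Above background means that 50% of a probe's spots reach a signal-to-noise ratio of 3. The probe above background on most arrays, then the brightest, represents its gene. An at-least fold uses the dim array's lowest value above background, or the probe's own if higher. Names came from RefSeq (GRCr8) by accession for 18355 probes, by symbol for 2758 and by synonym for 422; 1787 kept the file's symbol and 7045 had none. With 1 array per group, 2-fold stood in for a test.

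All members were named whatever their values, as were pump beta subunits, FXYD genes, and kinases and ubiquitin ligase parts acting on NCC; other listed genes when past 2-fold, and markers to describe their list. Some listed genes are counted but not reported here by name. Members and lists were chosen with earlier results of these data known. Alternatives were quantile scaling and normexp (limma 3.58.1, R 4.3.3, offset 50), median scaling, spot medians, non-uniform spots kept, the dim corner of 29 rows and 42 columns left out, means over probes, the authors' table, no dim-probe filter and, chosen after seeing the data, subtraction of the local shift within 15 rows and columns.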

Additional observations from a re-analysis of the deposited data

How the results depend on the processing

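No paired analysis was possible because each group has 1 array and the result comes from no test. Over 10 alternatives the count of members past 2-fold stayed at 0 for the low dose against control and for the high dose against the low dose. For the high dose against control it was 0 in place of 1 under normexp and with the local shift subtracted, where Slc4a7 stood at 0.30 and 0.98 (log2). Medians over the members moved by less than the technical SD at both doses against control. Between the doses the median was 0.13 under normexp, 0.10 with spot medians and 0.15 with the authors' log2 table, in place of 0.33, with the cause not tested. Of 210 single-member values, 207 kept their sign. The exceptions were Fxyd2 at the low dose, near 0 throughout, and Slc9a3 at the high dose, at 0.20 with the mean over probes. In size, 23 of the 210 moved by at least the technical SD. Among them was Slc9a3 at the low dose, in place of -0.85 (log2). It was -0.52 under normexp, -0.60 with the mean over probes and -0.99 with spot medians. Some of the 210 could not change: with no filter on dim probes each value equals the reported one. The same holds for Slc4a7 and Atp1b1, which have 1 probe each, under the mean over probes. Single pools leave the difference between animals unmeasured, and dim probes such as that of Slc4a7 limit the size of its difference. Over all genes, 241 were higher and 72 lower past 2-fold at the low dose, against 134 and 23 under normexp and 947 and 1718 with no filter on dim probes. At the high dose they were 84 and 15, against 37 and 3 under normexp, 90 and 31 with non-uniform spots kept, 100 and 29 with the authors' log2 table and 1046 and 957 with no filter. Between the doses they were 47 and 151, against 19 and 70 under normexp and 1600 and 694 with no filter.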

Other observations

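Values of genes outside the naming rule, chosen after their values were seen, are given as measured. Nherf1, the scaffold that binds NHE3 in the brush border, read 385 in the control pool, 243 with the low and 402 with the high dose, so that it, like the brighter Slc9a3 probe, was lowest at the low dose. Its log2 difference was -0.66 at the low dose and 0.06 at the high dose, and that of Nherf2 was 0.06 and 0.25. Slc12a1, the bumetanide-sensitive cotransporter of the thick ascending limb, stood at -0.92 at the low dose and 0.07 at the high dose. Egf, which in people regulates Trpm6, stood at -0.64 and 0.00.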
